A study of Mus musculus with 9 samples.

Results

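T-box transcription factors were followed in cultured cardiac fibroblasts of adult mice with reduced Gata4 or Tbx20. The genes described are the 8 T-box genes Tbx20, Tbx18, Tbx15, Tbx2, Tbx3, Tbx5, Tbx4 and Tbx1, taken by symbol from a table of 38924 genes, and 7 of them had enough counts to be tested. Fibroblasts came from RosaCas9-EGFP animals on a C57BL/6 background, 8 to 10 weeks old, which express Cas9, a DNA-cutting nuclease, and the marker EGFP, and were sorted as CD45-CD31-CD90+ after 3 days of culture. At 6 days after replating, and 80 to 90% confluency, the cells received guide RNAs by lipid transfection, with scrambled guides in control, 2 guides against Gata4 in Gata4 KD and 2 against Tbx20 in Tbx20 KD. Every group therefore carried Cas9, and each group had 3 libraries of 75 base reads, named a, b and c, with 31214828 to 41950397 counts each. The study calls them biological replicates, and neither the labels nor its methods tie a library to an animal, so p-values measure only the spread between these libraries.

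T-box factors bind DNA through a conserved domain named after brachyury, the founding member T, and activate or repress genes that pattern the early embryo, the limbs and the heart. In the heart, Tbx5 and Tbx20 act with Gata4 and Nkx2-5 in the cardiogenic program, while Tbx2 and Tbx3 repress chamber genes in the atrioventricular canal and the conduction system. Tbx18 marks the epicardium, the outer layer from which many cardiac fibroblasts arise, as well as the sinus node and mural cells of vessels. Tbx1 acts in the second heart field, Tbx4 in the hindlimb and lung mesenchyme, and Tbx15 in the skeleton and the skin.

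The guide sequences are shown because they define the groups and because a guide that matched a paralog would change what a difference in that paralog means. Each is given 5′ to 3′ with the protospacer in lower case and the adjacent PAM, the NGG motif that Cas9 requires, in capitals.
Tbx20_sgRNA2: caaattccatgaactgggcaCGG
Tbx20_sgRNA3: gagctgctcgccagtaaaggGGG
Gata4_sgRNA1: cagagagtgtgtcaattgtgGGG
Gata4_sgRNA3: gcaggactgggctgtcgaagGGG

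In the mouse build GRCm38 the protospacer of Tbx20_sgRNA2 lies at chr9:24770708-24770727 on the minus strand, in coding exon 2 of 8, where the expected cut falls in codon 116 of 445. That of Tbx20_sgRNA3 lies at chr9:24765732-24765751 on the plus strand, in coding exon 4, with the cut in codon 190. The Gata4 guides lie in coding sequence of exon 3 of 7, at chr14:63204711-63204730 on the minus strand, and of exon 2, at chr14:63240581-63240600 on the plus strand. At sites followed by NGG in the annotated transcripts of 16 other T-box genes, the Tbx20 guides had at least 7 mismatches over their 20 bases, including 7 for Tbx18. The Gata4 guides had at least 6 mismatches to a T-box gene, the lowest being to Tbx20. Introns and intergenic sequence were not searched. None of the 75 base windows of the 8 T-box genes occurred in another annotated gene, so no exact read of the full 75 bases was shared between paralogs in that annotation. Reads shortened by trimming were not examined.

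The cultures expressed a pair of T-box paralogs at high levels, and the rest at low ones. Levels of different genes were compared as CPM (a gene's counts relative to its library's scaled total) per kb of annotated exon, in the 3 control libraries. Tbx20 stood first at 83.5 ± 23.2 CPM per kb (SD, n = 3), followed by Tbx18 at 24.7 ± 1.75, a ratio of 3.39. Tbx15 followed at 2.65 ± 0.217 CPM per kb (SD, n = 3), a ratio of 9.31 between Tbx18 and Tbx15, and then Tbx2 at 1.08 ± 0.117. Tbx3 at 0.347 ± 0.0371 CPM per kb (SD, n = 3) and Tbx5 at 0.321 ± 0.129 had overlapping ranges and could not be ordered. Tbx4 was at 0.101 ± 0.0213 CPM per kb (SD, n = 3), and all other neighbours in this order were separated in every control library. The last place belonged to Tbx1, with 3 counts in all 9 libraries together and never more than 1 in a library, under the limit of 3 counts that corresponds to 0.071 to 0.0945 CPM in these libraries. The order was the same with the longest coding transcript in place of the union of exons.

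**Figure D1:**
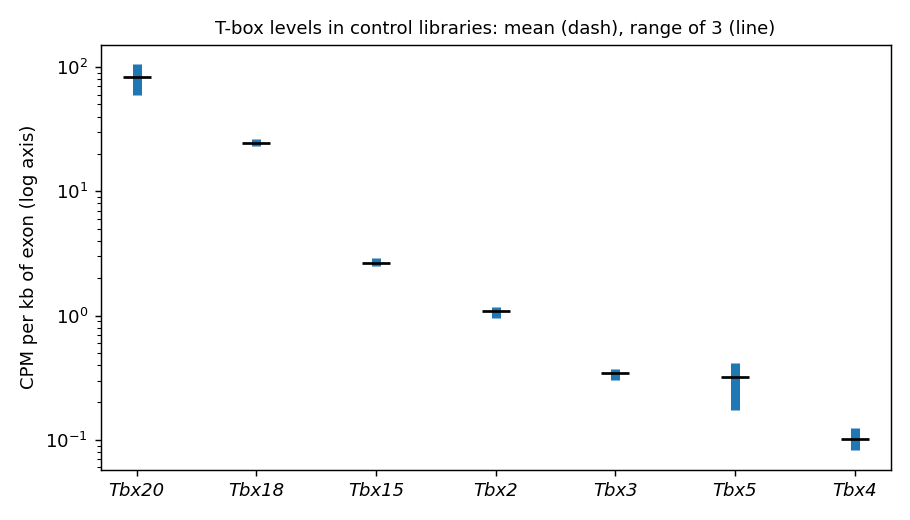
T-box levels in control cells, with the genes on the x axis and CPM per kb of exon on a logarithmic y axis. Dashes are means and bars the range of 3 control libraries. Tbx20 and Tbx18 stand above the others, the bars of Tbx3 and Tbx5 overlap, and Tbx1 is not drawn because 2 of the 3 control libraries had no count.

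Other T-box genes of the mouse were mostly absent. Among 9 others, Mga, which also carries a basic helix-loop-helix domain and partners with Max, was at 11.2 ± 1.1 CPM per kb (SD, n = 3) in control, between Tbx18 and Tbx15. Eomes, a factor of early mesoderm and of lymphocytes, was at 0.0706 ± 0.00914 CPM per kb (SD, n = 3) and rested on 5 to 13 counts per library. Its levels in Tbx20 KD, at 0.157 to 0.223 CPM, were below the controls, at 0.252 to 0.327 CPM, on 5 to 9 against 9 to 12 counts. They were not tested because of the filter on low counts, and groups did not overlap at 6.74% of all genes tested in that comparison. Tbx6, a factor of the paraxial mesoderm, had 3 to 8 counts per library. The remaining 6 were under 0.1 CPM in the mean of every group. Of these, Tbx10 had 0 counts in the controls, 1, 4 and 1 in the Gata4 KD libraries and 0, 0 and 2 in Tbx20 KD. These counts lie near the floor, and Tbx10 was not tested. T and Tbx19 had no count in any library.

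Where the genes lie was not used to choose them. Tbx20 (chr9:24718138-24774303, minus strand) and Tbx18 (chr9:87702800-87731260, minus strand) share chromosome 9 but are 62.9 Mb apart. Tbx3 and Tbx5 are neighbours on chromosome 5 with 148 kb between them, and Tbx2 and Tbx4 on chromosome 11 with 44.5 kb, both pairs on the plus strand. Tbx15 lies on chromosome 3 and Tbx1 on chromosome 16. Per kb, the levels of the neighbours Tbx3 and Tbx5 overlapped, whereas Tbx2 exceeded Tbx4 in every control library. Annotated antisense or divergent genes in the table were close to 0, with at most 1 count for Tbx3os1 beside Tbx3, at most 8 for 2610027K06Rik beside Tbx2 and none for 4930588K23Rik beside Tbx1. Counting was stranded, and the opposite-strand genes annotated at Tbx20, Tbx18, Tbx5 and Tbx15 were not among the 38924 genes counted, so they could not be followed.

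The genes of the sort markers CD90, CD31 and CD45, Thy1, Pecam1 and Ptprc, had means of 94.6, 5.55 and 2.31 CPM in control. Summed over 9 genes, fibroblast markers such as Col1a1 and Thy1 reached 11766 to 14010 CPM in control, 8263 to 12950 CPM in Gata4 KD and 11334 to 14576 CPM in Tbx20 KD. These sums are mostly the collagens Col1a1, Col1a2 and Col3a1, with means of 4006, 3867 and 3171 CPM in control. The leukocyte list reached 25.1 to 54.6 CPM in total and the endothelial list 35.2 to 55.6 CPM. The 8 cardiomyocyte markers summed to at most 1.73 CPM, with Pln at 0 in every library and Myh6, Myh7, Actc1 and Myl7 at 3 counts or fewer. In bulk RNA, fewer cells that express a gene cannot be told apart from less RNA per cell.

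Each T-box gene was next followed through the knockdowns. Counts were tested with edgeR's quasi-likelihood test, adjusted over all genes tested, at a threshold of 0.05. Against control, 0.38% of 14468 genes passed in Gata4 KD and 0.00687% of 14547 genes, a single gene, in Tbx20 KD, and 1.44% of 14477 genes passed between Gata4 KD and Tbx20 KD. None of the 7 tested T-box genes passed in any of the 3 comparisons, and with DESeq2 or edgeR's exact test 1 of them, Tbx20, passed in Tbx20 KD and between the knockdowns and 0 in Gata4 KD. At an unadjusted p under 0.05 there was 1 of 7 in Gata4 KD (Tbx18), 2 of 7 in Tbx20 KD (Tbx20 and Tbx18) and 1 of 7 between the knockdowns (Tbx20), where all genes gave 8.54%, 2.69% and 16.7%. Tbx20 is the guide target in Tbx20 KD, so that group's count and the one between the knockdowns include the gene lowered by design. The median log2 fold change of the 7 genes was -0.08, -0.04 and 0.03 in these comparisons, beside -0.02, -0.00 and -0.01 over all genes tested. Both comparisons with control use the same 3 control libraries, so their values are only set side by side.

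**Figure D2:**
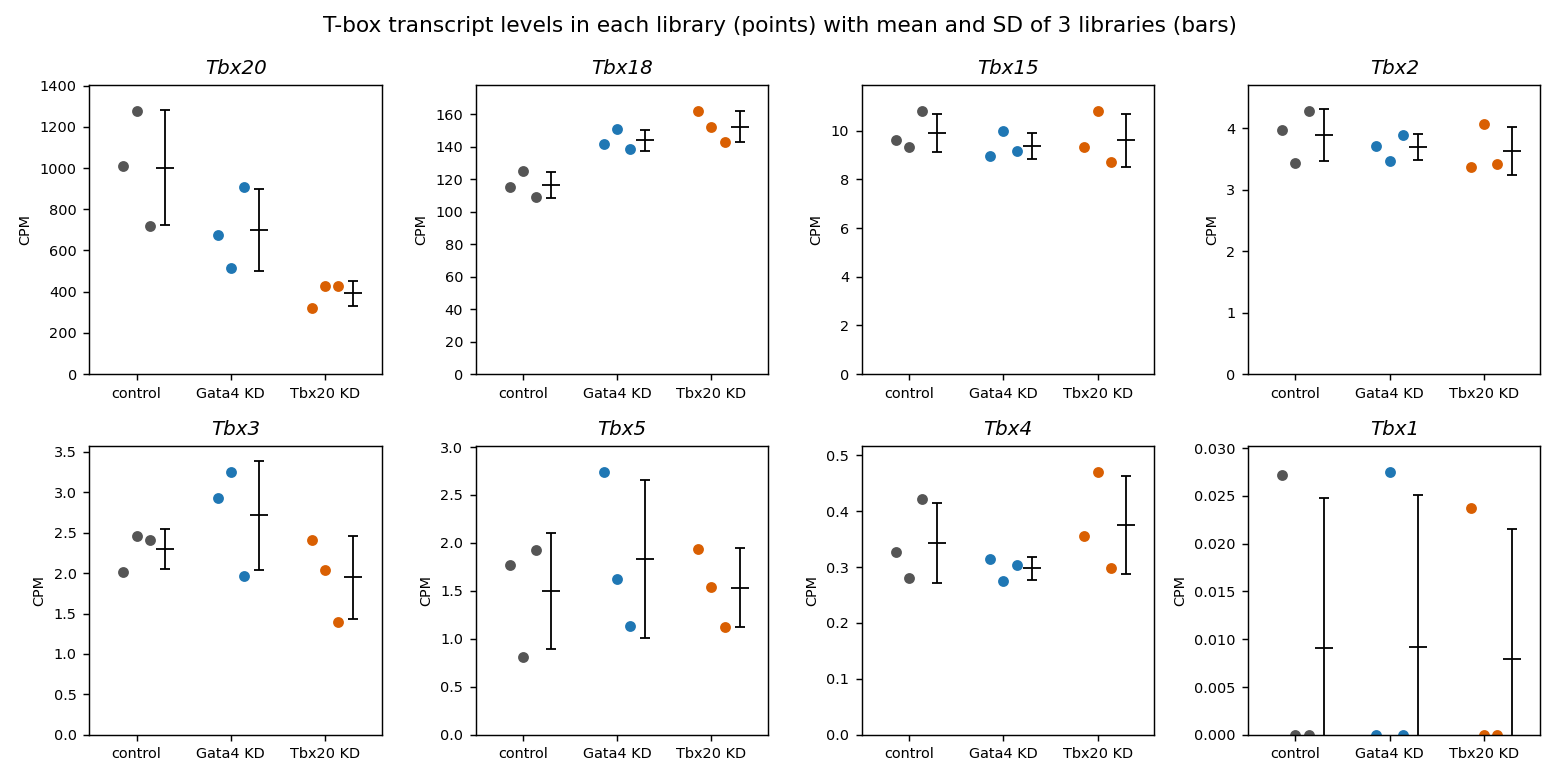
Levels of the 8 T-box genes, in CPM on linear axes from 0, with a panel for each gene and the groups on the x axis. Points are libraries a, b and c from left to right and bars the mean and SD of 3 libraries. The Tbx20 KD points of Tbx20 lie below all controls, the points of Tbx18 in both knockdowns lie above all controls, and the groups overlap in the other panels.

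Tbx20, the target in Tbx20 KD, was measured at 1010, 1276 and 720 CPM in control libraries a, b and c. It was at 674, 513 and 909 CPM in Gata4 KD and at 320, 426 and 428 CPM in Tbx20 KD. All Tbx20 KD libraries lay below all libraries of both other groups, whereas Gata4 KD libraries overlapped the controls. The fitted level in Tbx20 KD was 0.393 of control, a log2 fold change of -1.35 (SE 0.21, p 0.000154, adjusted p 0.748 in edgeR), while DESeq2 and edgeR's exact test gave adjusted p of 2.81e-08 and 2.42e-06. In Gata4 KD the log2 fold change was -0.52 (SE 0.24, edgeR's adjusted p 0.636), with a 95% interval from -1.08 to 0.03. Beside it, the fibroblast markers in Gata4 KD had a median log2 fold change of -0.29 over 9 genes, 7 of them below 0, where all genes gave -0.02, and 0 passed with edgeR's adjusted p while 3 were under an unadjusted p of 0.05. Over all genes 8.54% were under that p. Of the 3 markers, Tcf21, a factor of cardiac fibroblasts, had a log2 fold change of -0.61 (SE 0.19, edgeR's adjusted p 0.337) and Col1a1 one of -0.35 (SE 0.12, adjusted p 0.423), both below all controls. Pdgfra went the other way at 0.37 (SE 0.14, edgeR's adjusted p 0.485) and overlapped the controls. The part of these markers in the value of Tbx20 was not tested. The direct comparison gave 0.84 (SE 0.21, edgeR's adjusted p 0.109), which passed with DESeq2 (0.00063) and the exact test (0.00427).

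Of the abundant pair, Tbx20 varied more among libraries of a group. Its coefficient of variation was 27.7% in control, 28.5% in Gata4 KD and 15.8% in Tbx20 KD, where counting error alone gives 0.53, 0.642 and 0.822%. For Tbx18 the same values were 7.09, 4.06 and 6.42%, with counting error of 1.31 to 1.56%. Control b had the highest and control c the lowest Tbx20 level of the controls, and Gata4 KD c the highest and Gata4 KD b the lowest of that group. The same order of libraries held for Tcf21, at 180, 200 and 168 CPM in control and 114, 88.2 and 157 CPM in Gata4 KD, and for Col3a1, at 3226, 3595 and 2693 CPM and at 1848, 1607 and 3205 CPM. Of the other fibroblast markers, Col1a2, Pdgfra, Dcn, Lum and Postn kept it too. Col1a1 and Thy1 did not keep it in control, at 4069, 3969 and 3982 CPM and at 111, 81.5 and 91.5 CPM. The order also held for the endothelial markers Tek and Emcn and the mural markers Notch3 and Rgs5. It did not hold in control for the endothelial markers Pecam1, Cdh5 and Tie1, nor for the mural markers Mcam, Cspg4, Myh11 and Abcc9. Kdr, another endothelial marker, broke it in Gata4 KD, and Cldn5 and Kcnj8 had 3 counts or fewer. How often the order held over all genes was not counted. Without control b the log2 fold change of Tbx20 in Tbx20 KD was -1.13, the value nearest to 0 among the fits that left out 1 library, and in Gata4 KD it was -0.31.

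Among the 7 tested T-box genes, Tbx18 was the one besides Tbx20 whose knockdown libraries lay clear of the controls. It was at 115, 125 and 109 CPM in control, at 142, 151 and 139 CPM in Gata4 KD and at 162, 152 and 143 CPM in Tbx20 KD. All 6 knockdown libraries were above the highest control, and the knockdown groups overlapped each other. Groups did not overlap at 13.8% of all genes in Gata4 KD, at 6.74% in Tbx20 KD and at 23% between the knockdowns, and among the 7 T-box genes at 1 (Tbx18), 2 (Tbx20 and Tbx18) and 1 (Tbx20). These counts again include Tbx20, the guide target in Tbx20 KD. The log2 fold change of Tbx18 was 0.31 in Gata4 KD (SE 0.08, p 0.00528, adjusted p 0.251 in edgeR) and 0.40 in Tbx20 KD (SE 0.09, p 0.00146, adjusted p 1), or 1.24 and 1.32 times the control level. Over the alternatives that kept all libraries the adjusted p ranged from 0.0655 to 0.401 in Gata4 KD and from 0.06 to 1 in Tbx20 KD. Between the knockdowns it was -0.08 (SE 0.06, edgeR's adjusted p 0.553), with a 95% interval from -0.22 to 0.06.

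Because Tbx18 marks epicardial and mural cells, both marker lists were set beside it. The 7 mural markers summed to 86.6 to 93.5 CPM in control, 76.3 to 97.7 CPM in Gata4 KD and 84.5 to 93.9 CPM in Tbx20 KD, and none of the 5 tested passed in any comparison, with Kcnj8 at 3 counts or fewer in every library. Their median log2 fold change was 0.05 in Gata4 KD, with values of 0.93 for Rgs5, 0.24 for Cspg4, 0.05 for Mcam, -0.13 for Myh11 and -0.48 for Notch3, of which Rgs5 alone was under an unadjusted p of 0.05, and -0.06 in Tbx20 KD. The 8 epicardial or mesothelial markers summed to 95.5 to 116 CPM in control, 96 to 157 CPM in Gata4 KD and 99.7 to 125 CPM in Tbx20 KD. These sums are mostly Aldh1a2, a retinoic acid synthesis enzyme, with a mean of 66.6 CPM in control and 112 CPM in Gata4 KD, and they do not follow the other markers. Of the 6 tested in Gata4 KD, 1 passed and 4 were under an unadjusted p of 0.05, where all genes gave 0.38% and 8.54%. Lrrn4, which passed, was lower with a log2 fold change of -3.38 (SE 0.27, edgeR's adjusted p 0.00272). The other 3 were Upk3b at -1.51 (SE 0.40, adjusted p 0.247) and Upk1b at -1.16 (SE 0.28, adjusted p 0.201), both below all controls, and Aldh1a2 at 0.75 (SE 0.22, adjusted p 0.298), above all controls. In Tbx20 KD 0 of 6 passed with edgeR and 1 was under an unadjusted p of 0.05, where all genes gave 0.00687% and 2.69%. That gene, Krt19, was lower, with a log2 fold change of -0.81 (SE 0.30), and overlapped the controls. The part of such cells in the values of Tbx18 was not tested.

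**Figure D3:**
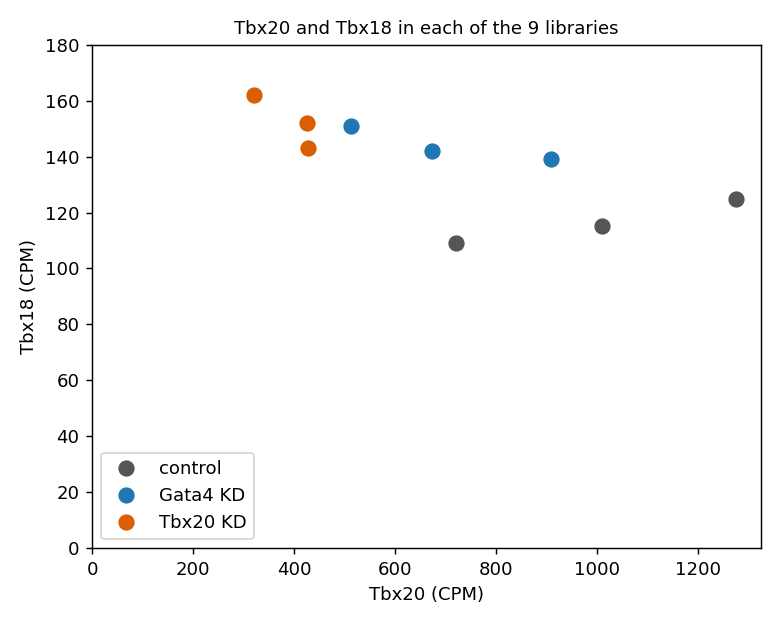
Tbx20 (x axis) and Tbx18 (y axis) in each of the 9 libraries, both in CPM on linear axes from 0, coloured by group. Controls lie at the lower right and Tbx20 KD libraries at the upper left, and Gata4 KD libraries at 513 to 909 CPM of Tbx20 overlap the controls along the x axis but not along the y axis.

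The balance of the abundant pair is given as a description, with no test. Per kb of exon, Tbx20 exceeded Tbx18 by 3.36 ± 0.71 (SD, n = 3) times in control and by 1.92 ± 0.615 times in Gata4 KD, and was at 1.02 ± 0.215 times its level in Tbx20 KD. The lowest control ratio was 2.6, the highest Gata4 KD ratio 2.56 and the highest Tbx20 KD ratio 1.18, so the groups did not overlap, although Gata4 KD and control nearly met. As a share of the 8 genes' summed CPM per kb, Tbx20 made up 73.4% ± 4.86 (SD, n = 3) in control, 61.7% ± 7.63 in Gata4 KD and 47% ± 5.48 in Tbx20 KD. The highest Gata4 KD share of Tbx20, 69.2%, overlapped the lowest control share, 68.1%, and the Tbx20 KD shares, up to 51.2%, lay below both groups. Tbx18 made up 22.4% ± 3.5 (SD, n = 3), 33.5% ± 6.66 and 46.8% ± 5.07. With the longest coding transcript as the length, Tbx20 was at 78.1, 67.5 and 53.5%. A share of Tbx20 is lower where Tbx18 is higher by construction, and 3 libraries against 3 cannot give an exact permutation p below 0.1. Across all 9 libraries Pearson's r of log2 CPM between both genes was -0.73, while r of the deviations from group means was -0.02 over the same libraries, which share normalization and groups.

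Tbx15 and Tbx2 were expressed at low levels that overlapped among all groups. Tbx15 was at 9.61, 9.32 and 10.8 CPM in control, at 8.95, 9.99 and 9.16 CPM in Gata4 KD and at 9.32, 10.8 and 8.7 CPM in Tbx20 KD. Its log2 fold change was -0.08 in Gata4 KD (95% interval -0.34 to 0.18) and -0.04 in Tbx20 KD (-0.31 to 0.24), with edgeR's adjusted p of 0.891 and 1. Tbx2 was at 3.97, 3.44 and 4.28 CPM in control, at 3.72, 3.47 and 3.9 CPM in Gata4 KD and at 3.38, 4.08 and 3.42 CPM in Tbx20 KD. Its log2 fold change was -0.08 in Gata4 KD (95% interval -0.43 to 0.28) and -0.09 in Tbx20 KD (-0.44 to 0.25). For both genes the intervals leave out changes as large as that of Tbx20 in Tbx20 KD.

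Tbx3 and Tbx5 were less precise. Tbx3 was at 2.01, 2.46 and 2.41 CPM in control, at 2.93, 3.25 and 1.96 CPM in Gata4 KD and at 2.41, 2.04 and 1.39 CPM in Tbx20 KD. Gata4 KD libraries a and b were above all others and Tbx20 KD library c below all others, yet the ranges overlapped. The log2 fold change of Tbx3 was 0.24 in Gata4 KD (SE 0.23, edgeR's adjusted p 0.84), -0.23 in Tbx20 KD (SE 0.23, adjusted p 1) and 0.48 between the knockdowns (SE 0.26, adjusted p 0.412). Tbx5 was at 1.77, 0.812 and 1.93 CPM in control, at 2.74, 1.62 and 1.13 CPM in Gata4 KD and at 1.94, 1.54 and 1.12 CPM in Tbx20 KD. Its spread within a group, with a coefficient of variation of 26.9 to 44.9%, exceeded the 12.7 to 13.8% of counting error. The log2 fold change of Tbx5 was 0.28 in Gata4 KD (SE 0.41, edgeR's adjusted p 0.896) and 0.04 in Tbx20 KD (SE 0.34, adjusted p 1). Without control b, whose value was the lowest of the 9 libraries, the sign turned in both, at -0.02 and -0.25. It also turned in Gata4 KD without Gata4 KD a (-0.10) and in Tbx20 KD without Tbx20 KD a (-0.17).

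Tbx4 rested on 10 to 15 counts per library. It was at 0.327, 0.28 and 0.422 CPM in control, at 0.315, 0.275 and 0.304 CPM in Gata4 KD and at 0.355, 0.47 and 0.298 CPM in Tbx20 KD. The groups overlapped, and counting error alone gives a coefficient of variation of 26.7 to 31.1%, more than was observed within any group. Its log2 fold change was -0.20 in Gata4 KD (95% interval -0.97 to 0.58) and 0.13 in Tbx20 KD (-0.65 to 0.90), so that a change of the size of that of Tbx18 would not have been detectable at this depth. Tbx1 was not tested, having a single count in 1 library of each group.

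**Figure D4:**
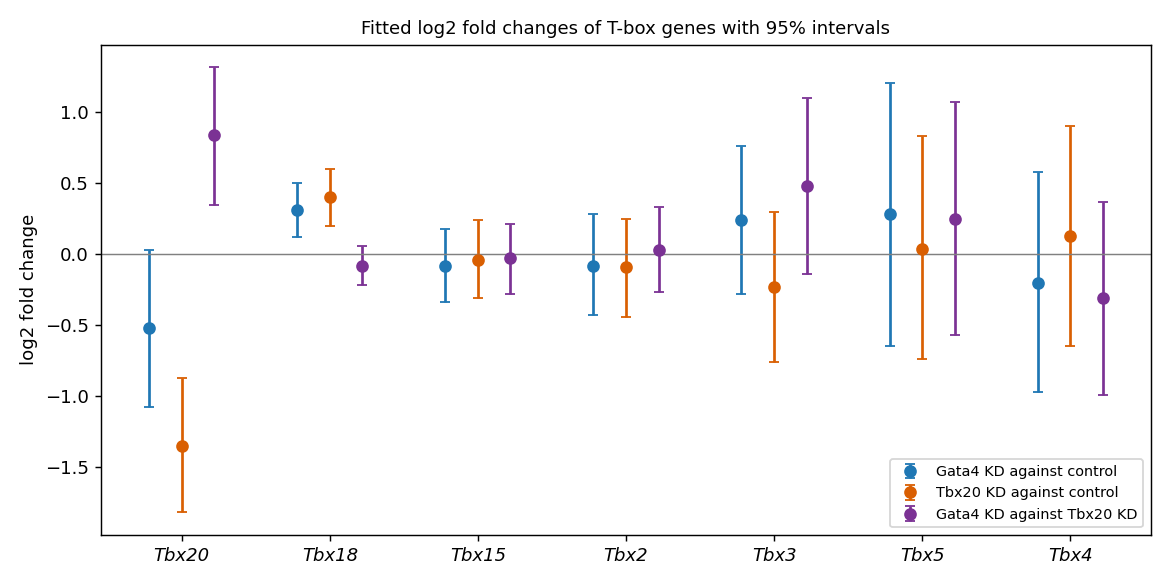
Fitted log2 fold changes of the 7 tested T-box genes (x axis) in 3 comparisons, with 95% intervals from the fit. The intervals of Tbx20 in Tbx20 KD and between the knockdowns, and of Tbx18 in both knockdowns against control, lie to one side of 0 before adjustment over all genes. Those of Tbx15, Tbx2, Tbx3, Tbx5 and Tbx4 include 0 in every comparison.

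Partners of T-box factors were then examined, since the level of a cofactor bears on what a T-box factor can do. Of 21 listed partners and corepressors, 12 were tested in Gata4 KD, of which 1 passed (Gata4, lower), and 13 in Tbx20 KD, of which 0 passed with edgeR's quasi-likelihood or exact test or with DESeq2 and 2 (Gata4 and Tle2) were under an unadjusted p of 0.05. Between the knockdowns 2 of 12 passed, both lower in Gata4 KD. Over all genes 0.38% passed in Gata4 KD, 0.00687% in Tbx20 KD and 1.44% between the knockdowns. In Tbx20 KD 2.69% of all genes were under an unadjusted p of 0.05. Gata4 is the guide target in Gata4 KD, so its calls there and between the knockdowns are those of the gene lowered by design. The median log2 fold change of the list was 0.08, 0.14 and -0.11, beside -0.02, -0.00 and -0.01 over all genes. Gata4, the zinc finger factor that binds Tbx5 and Tbx20, had a log2 fold change of -1.55 in Gata4 KD and -1.77 against Tbx20 KD (SE 0.12 for each, edgeR's adjusted p 0.00272 and 0.0013). In Tbx20 KD it did not pass, at 0.23 (SE 0.07, edgeR's unadjusted p 0.0125). Its Tbx20 KD libraries, at 178, 192 and 198 CPM, were above all controls, at 166, 155 and 167 CPM. Tle3, a Groucho-type corepressor that factors with a suitable docking motif recruit, was at 63, 59.7 and 64.5 CPM in Gata4 KD and at 74.2, 76.6 and 75.4 CPM in Tbx20 KD. Control libraries of Tle3 lay between them at 69.2, 65.3 and 71.2 CPM, with no overlap among the 3 groups. Between the knockdowns it was lower in Gata4 KD by a log2 fold change of -0.27 (SE 0.05, edgeR's adjusted p 0.0457), a call that held without Gata4 KD c and was lost without each of the other 5 libraries, where the adjusted p reached 0.221. It was also lost with all 9 libraries in one fit (0.071).

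Further partners did not pass, except Smarcd3 between the knockdowns with DESeq2 and with the exact test. Smarcd3, a chromatin remodelling subunit that works with Tbx5 and Gata4, had a log2 fold change of -0.65 between the knockdowns (SE 0.17, edgeR's adjusted p 0.123) and of -0.46 in Gata4 KD (SE 0.15, edgeR's adjusted p 0.39), and all 3 libraries, at 13.1, 10.7 and 16.5 CPM, were below the lowest control, at 18.2 CPM. Hand2, a basic helix-loop-helix factor of the heart, had a log2 fold change of -0.21 between the knockdowns (SE 0.08, edgeR's adjusted p 0.226). Chd4, the helicase of a repressor complex that Tbx20 binds, had one of 0.13 (SE 0.05, edgeR's adjusted p 0.285). Tle2, another corepressor, had one of -0.41 in Tbx20 KD (SE 0.18, edgeR's adjusted p 1). Nkx2-5, the homeodomain partner of Tbx5 and Tbx20, had 2 to 9 counts per library, and Isl1, a second heart field factor, had 0 to 3.

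Among genes known as T-box targets in the heart and limb, Fgf10 was higher and Mycn lower in Gata4 KD than in either other group. Of 16 listed targets, 9 were tested in Gata4 KD and 2, these, passed. Of 11 tested in Tbx20 KD, 0 passed with edgeR's quasi-likelihood or exact test or with DESeq2, and 0 were under an unadjusted p of 0.05. Between the knockdowns 2 of 11 passed, again Fgf10 and Mycn. Over all genes 0.38% passed in Gata4 KD, 0.00687% in Tbx20 KD and 1.44% between the knockdowns. Under edgeR's unadjusted p of 0.05 there were 2.69% of all genes in Tbx20 KD, so few of 11 genes would be reached at that share. The median log2 fold change of the list was 0.04, 0.01 and 0.05. Fgf10, a growth factor that Tbx4 and Tbx5 induce in limb and lung buds and that Tbx1 induces in the second heart field, was at 0.925, 1.48 and 1.39 CPM in control and at 4.82, 5.29 and 3.82 CPM in Gata4 KD. In Tbx20 KD it was at 1.44, 1.38 and 1.14 CPM, within the control range. Its log2 fold change was 1.87 in Gata4 KD (SE 0.23, edgeR's adjusted p 0.0245), 0.07 in Tbx20 KD (SE 0.25, adjusted p 1) and 1.81 between the knockdowns (SE 0.18, adjusted p 0.00683). The counts behind it were 138 to 192 per Gata4 KD library and 34 to 61 in the other groups. The call against control was lost without control a or c or Gata4 KD a or b, with adjusted p of up to 0.167. The call between the knockdowns was lost without Gata4 KD a or Tbx20 KD b or c, with adjusted p of up to 0.0584.

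Mycn, a growth-promoting factor that Tbx2 and Tbx20 control in the embryonic heart, was at 5.44, 5.09 and 5.78 CPM in control and at 2.87, 2.15 and 2.71 CPM in Gata4 KD. It was at 5.06, 6.36 and 5.95 CPM in Tbx20 KD, overlapping the controls. Its log2 fold change was -1.08 in Gata4 KD (SE 0.16, edgeR's adjusted p 0.0449), 0.10 in Tbx20 KD (SE 0.13, adjusted p 1) and -1.17 between the knockdowns (SE 0.15, adjusted p 0.0198). The call against control held only without control b among the fits that left out 1 library, and was lost without control a or c or any Gata4 KD library, with adjusted p of up to 0.223. The call between the knockdowns was lost without Gata4 KD a or b or Tbx20 KD b or c, with adjusted p of up to 0.12. Lef1, a factor of the Wnt pathway, had a log2 fold change of 0.90 between the knockdowns (SE 0.27, edgeR's adjusted p 0.159). Has2, the hyaluronan synthase of the cardiac cushions, had one of 0.18 (SE 0.09, edgeR's adjusted p 0.365), and Cdkn2a, a cell cycle inhibitor that Tbx2 and Tbx3 repress, one of 0.13 (SE 0.07, adjusted p 0.387). Nppa, a chamber gene and a common reporter of Tbx5 activity, had no count in any library.

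**Figure D5:**
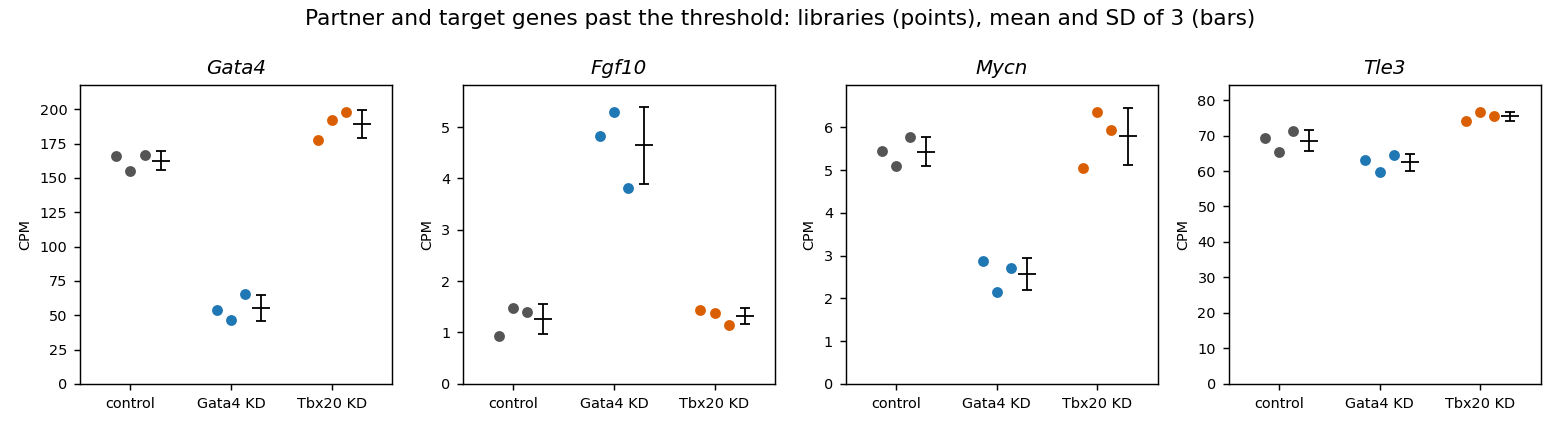
Gata4, Fgf10, Mycn and Tle3, the listed partners and targets that passed the threshold in a comparison, in CPM on linear axes from 0 with the groups on the x axis. Points are libraries a, b and c from left to right and bars the mean and SD of 3 libraries. Gata4 KD stands apart from both other groups for Gata4, Fgf10 and Mycn, and the 3 groups of Tle3 do not overlap.

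Finally, genes whose pattern was most like that of Tbx20 were sought among 10028 others with a mean of at least 5 CPM, by Pearson's r of log2 CPM over the 9 libraries, which share groups and normalization. The highest values belonged to Nrp2 (r 0.97), a receptor of semaphorins and VEGF, Robo1 (0.93), a receptor of Slit proteins, Itgb3 (0.92), an integrin subunit, Nucb2 (0.88) and Cep63 (0.88), a centrosomal protein. These values describe the closest of many genes. Their changes were smaller than those of Tbx20, with Nrp2 at 49.4 ± 3.33 CPM (SD, n = 3) in control, 47.3 ± 2.61 in Gata4 KD and 43.1 ± 2.11 in Tbx20 KD. For the deviations from group means r was 0.96 for Nrp2, 0.98 for Robo1, 0.97 for Itgb3, 0.92 for Nucb2 and 0.47 for Cep63. The genes were picked by r over these same libraries, so high values here are part of the choice. Tcf21 had an r of -0.09 over the 9 libraries and of 0.89 for the deviations. It was named above for sharing the library order of Tbx20, so that value is also part of a choice. For Gata4 the same values were -0.16 and 0.58. Of the T-box genes described, Tbx18 and Tbx15 alone had the mean of 5 CPM needed, with r of -0.73 and -0.08 to Tbx20.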

How the data were processed

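RNA was measured in 9 libraries from 3 groups. After quality trimming, the authors aligned reads to GRCm38 with Bowtie2 within RSEM, under a stranded setting. The deposited table holds expected counts per gene as whole numbers, not normalized. The submitters' processing notes name the build mm9 instead of GRCm38. The table carries no coordinates, so positions are those of GENCODE M21 on GRCm38, which gave symbols to 37607 of 38924 genes and may differ from the annotation used for counting. Guides were located by matching them to M21 transcripts.

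Each comparison was fitted on its 6 libraries in R 4.3.3 with edgeR 4.0.16 (filterByExpr, TMM, quasi-likelihood F test, no covariate) and adjusted by Benjamini-Hochberg over all genes tested, at 0.05. The SE is the log2 fold change divided by the root of F. CPM was scaled over all 9 libraries, and log2 CPM for likeness used a prior of 0.1. The procedure was tested on simulated data. Alternatives were DESeq2 1.42.0, library size alone, no filter on low counts, an exact test, a fit over all 9 libraries, a block for the replicate letter and leaving out each library.

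The genes, partner, target and marker lists were chosen with earlier results of these data known. Named were all 8 T-box genes, other T-box genes at 0.1 CPM or more, and from the partner and target lists Gata4, those past the threshold and up to 4 others with the smallest p, of which 1 is not reported here. Also named were antisense or divergent genes within 5 kb and the 5 genes most like Tbx20. Nkx2-5, Isl1 and Nppa, and the marker genes given as examples, were picked after their values were seen. Edited alleles and protein were not measured here.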

Additional observations from a re-analysis of the deposited data

How the results depend on the processing

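The number of T-box genes past the threshold was 0 in every comparison and became 1, always Tbx20, with DESeq2, with no filter on low counts and with the exact test in Tbx20 KD, and with DESeq2 and the exact test between the knockdowns. In Gata4 KD it stayed 0 under every setting run, and it stayed 0 in all 3 comparisons without each library in turn. Library size alone, all 9 libraries in one fit and the replicate block each gave 0 T-box genes. The replicate letters were not taken to pair the libraries, since r of deviations from group means was not above 0.1 in every pair of equal letters and ran from -0.17 to 0.255, beside -0.385 to 0.347 for different letters. As a hint from the data the other way, 6 of 9 libraries correlated best with their own letter. Under the replicate block the calls over all genes numbered 5 in Gata4 KD, 2 in Tbx20 KD and 101 between the knockdowns, against 55, 1 and 208 without it, and edgeR's adjusted p was 0.177 for Fgf10 and 0.219 for Mycn in Gata4 KD and 0.0625 for Mycn and 0.101 for Tle3 between the knockdowns. Over all genes DESeq2 called 279, 10 and 758 and the exact test 250, 8 and 729.

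Signs that turned did so in fits that left out 1 library. The lowest and highest values were -0.10 and 0.56 for Tbx5 in Gata4 KD, -0.25 and 0.26 in Tbx20 KD and -0.14 and 0.50 between the knockdowns. For Tbx15 they were -0.13 and 0.03 in Tbx20 KD and -0.10 and 0.06 between the knockdowns, for Tbx2 -0.02 and 0.12 between the knockdowns, and for Tbx4 -0.06 and 0.30 and for Fgf10 -0.11 and 0.22 in Tbx20 KD. The order of levels in control kept 6 separated neighbour pairs of 7, and without control replicate b it had 7, with Tbx5 above Tbx3. The number of T-box genes whose groups do not overlap was the same with library size alone. Counts limit what can be said of Tbx4 and Tbx1, and the spread between libraries limits Tbx20, Tbx3 and Tbx5.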
